A study of Mus musculus with 6 samples.

Results

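Interferon-stimulated genes were followed in mouse liver RNA sequencing libraries, as a module of 37 genes taken by gene name. The module holds 9 genes counted as type I (the Ifit and Oas genes, Isg15 and Usp18) and 7 counted as type II (the Gbp genes, Igtp, Irgm1, Psmb8 and Psmb9). The other 21 members are transcription factors, sensors, further antiviral effectors and antigen processing genes. All 37 had a value among the 14002 genes listed in every library. The comparison was between livers of 3 LKO mice, which lack let-7b and let-7c-2 in hepatocytes, and livers of 3 wild type mice. Both groups were C57BL/6 mice labelled as 8 weeks old and kept on a 60% high-fat diet for 8 weeks. Whether that age is at the start of the diet is not stated, and how the knockout was limited to hepatocytes is not given in the sources used here. Its title places the series in work on the nuclear receptor PPARα and let-7 in hepatic lipid metabolism, so the interferon genes are a side view of the same libraries. Each library is whole liver RNA, and fewer cells of a type and less RNA per cell cannot be told apart in it.

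Interferons are cytokines released after viral or microbial sensing. Type I interferons act through the Ifnar1 and Ifnar2 receptor and the kinases Jak1 and Tyk2, and Stat2 and Irf9 act in the complex that binds the interferon-stimulated response element (ISRE). Interferon gamma, the type II interferon, acts through gamma-activated sites (GAS), and it also induces Irf1, which can bind ISRE-like sequences. Many of the genes respond to both, so the division into types is by main inducer only. In liver, hepatocytes, Kupffer cells and endothelial cells all express the receptors. The let-7 microRNAs repress messenger RNAs that carry a match to their seed in the 3′ untranslated region.

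The promoter sequences are shown first because ISRE and GAS cores are the elements through which interferons are known to act. RefSeq promoter windows (build GRCm38.p6, 250 bases before to 50 bases after an annotated start) were found for 28 of the 37 members, and the other 9 are Oas2, Mx1, Mx2, Usp18, Zbp1, Parp9, Parp14, Dhx58 and Rtp4. The ISRE core was searched as GAAANNGAAA on both strands, with overlapping matches allowed, and the GAS core as TTCNNNGAA, which is its own reverse complement. An ISRE core lay in a window of 13 of the 28 members, against 3.44% of all 32851 windows in the table. These were Ifit1, Ifit3, Isg15 and Oas1a of the type I genes, Gbp2, Gbp3, Gbp7, Igtp and Irgm1 of the type II genes, and Stat2, Rsad2, Bst2 and Ifih1. A GAS core lay in a window of 7 members, Ifit2, Oas1a, Gbp7, Igtp, Psmb8, Irf1 and Bst2, against 8.30% of all windows. The other 12 of the 28 members held neither core. A member counted if any of its windows held the core, while both percentages are shares of single windows. The stretches below run 5′ to 3′ on the gene's strand, and positions are counted from the start, with -1 as the last base before it. In the first 6 stretches capitals mark ISRE cores in either orientation. Ifit1 (chr19:34640770-34640828, plus strand) has 2 between -104 and -76, and Ifit3 (chr19:34583358-34583431, plus strand) has 2 between -156 and -113. Isg15 (chr4:156200860-156200911, minus strand) has 3 overlapping cores between -78 and -57, and Irgm1 (chr11:48871421-48871465, minus strand) has 2 overlapping cores between -30 and -15. Rsad2 (chr12:26456548-26456587, minus strand) has 1 between -120 and -111, and Gbp2 (chr3:142620589-142620628, plus strand) has 1 between -59 and -50.
Ifit1: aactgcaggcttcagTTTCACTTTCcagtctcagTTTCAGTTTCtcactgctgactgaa
Ifit3: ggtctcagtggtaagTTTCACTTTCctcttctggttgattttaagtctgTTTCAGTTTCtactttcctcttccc
Isg15: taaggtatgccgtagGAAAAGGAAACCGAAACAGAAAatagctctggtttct
Irgm1: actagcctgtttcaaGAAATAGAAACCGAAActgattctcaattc
Rsad2: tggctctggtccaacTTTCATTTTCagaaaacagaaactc
Gbp2: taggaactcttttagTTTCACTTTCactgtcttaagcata

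Igtp carries both kinds of core, and in its stretch (chr11:58199496-58199546, plus strand) the first capitals are a GAS core and the second an ISRE core, between -45 and -25, with 2 bases between them. In Psmb8 (chr17:34198083-34198121, plus strand) and Irf1 (chr11:53769909-53769947, plus strand) the capitals mark a GAS core, at -97 to -89 and at -90 to -82, and neither window holds an ISRE core. These letters describe the windows and are not evidence of binding in these livers.
Igtp: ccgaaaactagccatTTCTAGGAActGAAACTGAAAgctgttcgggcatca
Psmb8: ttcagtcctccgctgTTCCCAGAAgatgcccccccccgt
Irf1: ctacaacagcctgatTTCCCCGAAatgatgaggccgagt

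Ifit1 and Ifit3 were the only members of the module that passed the test, and both were lower in LKO livers. The deposited expression signal is an estimated read count multiplied by 1 factor per library. The test was limma on log2(signal + 1), for genes with a mean signal of at least 1, with p-values adjusted over all 11168 genes tested, and a gene with an adjusted p under 0.05 is called. Of the 37 members 35 were tested, since Oas2 and Mx1 were below that minimum. Ifit1 and Ifit3 were lowered in LKO, no member was raised, and 33 were not called. Over all genes tested 1.69% were lowered and 1.82% were raised. At an unadjusted p under 0.05, 8 members were lower and 1 was higher in LKO, against 989 lower and 1070 higher among all genes. The LKO libraries lay wholly below the wild type libraries in 8 members, against 11.9% of all genes tested, and wholly above them in 3 members, against 12.2%. The fitted log2 fold changes (LKO minus wild type) were negative for 25 members and positive for 10, and their median was -0.26, against -0.0017 over all genes tested. In the same libraries 13 of 15 mitochondrially encoded transcripts, which can reflect RNA quality, had negative log2 fold changes, with a median of -0.31 and none called, and 3 of them had LKO wholly below wild type. Their part in the module's lower values was not tested. The p-values rest on these 6 samples alone. They set each difference between groups against a spread within groups that limma moderates by a trend over all genes tested. The heat map of the members by library shows that the lower values concentrate in some genes and in some LKO libraries.

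**Figure D1:**
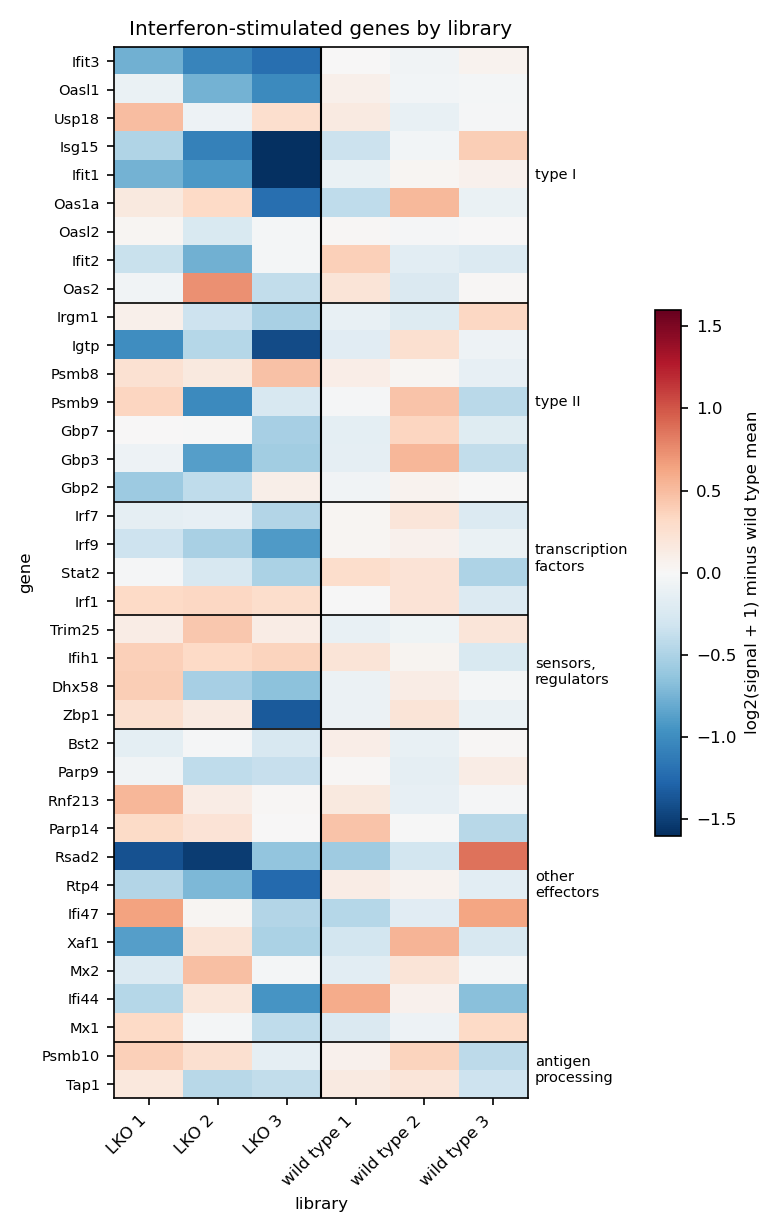
Expression of the 37 interferon-stimulated genes in each library (columns, LKO left and wild type right), as log2(signal + 1) minus the gene's wild type mean, grouped by role (rows). Ifit3, Isg15, Ifit1, Igtp, Rsad2 and Rtp4 are blue in all 3 LKO libraries, and many other rows are mixed.

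LKO replicate 3 held the lowest of the 6 values in 17 of the 35 tested members, or 48.6%, while it was the lowest library in 16.1% of all genes tested. LKO replicate 2 was the lowest in 7 members and LKO replicate 1 in 3. LKO replicate 1 was the highest library in 8 members, beside 9 for wild type replicate 2 and 7 for wild type replicate 1. Differences between single livers were not tested.

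Ifit3 and Ifit1 belong to the Ifit family of antiviral proteins with tetratricopeptide repeats, and Ifit1 is known to bind viral RNA ends. Ifit3 (ENSMUSG00000074896, chromosome 19, 34583531 to 34588731) had signals of 7.34, 5.86 and 5.16 in LKO livers and 13.2, 12.7 and 13.8 in wild type livers. The groups were far apart, with little spread in wild type. Ifit3 averaged 6.12 ± 1.11 in LKO and 13.2 ± 0.536 in wild type (SD, n = 3 each), and its log2 fold change was -1.01 (SE 0.17, 95% interval -1.38 to -0.64). It was lowered with an adjusted p of 0.0121 in limma, and the call held in all 14 alternative settings. With 1 library left out in turn, its adjusted p in limma ran between 0.00732 and 0.0499. Most of these fits were thus close to the threshold.

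Ifit1 (ENSMUSG00000034459, chromosome 19, 34640871 to 34650009) had signals of 4.09, 3.57 and 1.56 in LKO livers and 7.03, 7.82 and 8.07 in wild type livers. Again no LKO liver reached the lowest wild type liver, and LKO replicate 3 was the lowest. The means were 3.07 ± 1.34 in LKO and 7.64 ± 0.541 in wild type (SD, n = 3 each), which rest on 69 and 189 estimated reads over the 3 libraries of each group. Its log2 fold change was -1.14 (SE 0.26, 95% interval -1.73 to -0.56), and it was lowered with an adjusted p of 0.0467 in limma. This call was close to the threshold and held in 6 of the 14 alternatives. With 1 library left out in turn it was lost without any library but LKO replicate 1, and the adjusted p ran between 0.0256 and 0.138, the log2 fold change between -1.33 and -0.84.

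Ifit2, the family member located before these on chromosome 19 (34550694 to 34576419), was much scarcer, at 1.32, 0.744 and 1.89 in LKO and 2.86, 1.64 and 1.55 in wild type. Its groups overlapped, and it was not called (log2 fold change -0.38, 95% interval -1.02 to 0.26). Of the 50-base windows of the Ifit3 transcripts 51.2% also occur in the near copy Ifit3b, so how reads were shared out between both genes is not known. The summed signal of Ifit3 and Ifit3b was 9.89, 6.85 and 6.35 in LKO and 14.8, 17.5 and 18.5 in wild type. The groups did not overlap in this sum either, and Ifit3 with Ifit3b summed was still lowered.

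Isg15 encodes a ubiquitin-like protein that is attached to other proteins, and Usp18 encodes the protease that removes it and that also restrains signalling at the type I receptor. Isg15 had signals of 5.28, 3.13 and 1.89 in LKO and 5.86, 7.44 and 10.5 in wild type, so its highest LKO value was just below its lowest wild type value. It was not called (log2 fold change -1.05, SE 0.30, adjusted p 0.0941 in limma). Usp18 had 15.6, 10.1 and 13.1 in LKO and 11.98, 9.84 and 10.6 in wild type. It was the only type I gene with a positive log2 fold change (0.22, 95% interval -0.18 to 0.62), its groups overlapped, and it was not called.

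The Oas genes encode oligoadenylate synthetases, whose product activates a ribonuclease, and the Oas-like genes encode related proteins. Oasl1, known in mouse to hold back Irf7 translation, had signals of 10.2, 6.10 and 4.90 in LKO and 11.7, 10.6 and 10.7 in wild type. The wild type livers were nearly equal, and LKO replicate 1 lay close below them. Oasl1 was not called (log2 fold change -0.63, SE 0.23, adjusted p 0.179 in limma). Its neighbour Oasl2 on chromosome 5 was level, at 2.37, 1.79 and 2.23 in LKO and 2.34, 2.27 and 2.32 in wild type (log2 fold change -0.09, 95% interval -0.56 to 0.39). Oas1a had 5.94, 6.80 and 1.71 in LKO and 3.71, 7.91 and 4.80 in wild type, with overlap and 1 low LKO liver. Since 57.6% of its 50-base windows occur in Oas1g, its own level is uncertain, and it was not called. Oas2 had mean signals of 0.485 in LKO and 0.326 in wild type, too low to test.

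The type II genes include guanylate-binding proteins and immunity-related GTPases, which act on vacuoles that hold pathogens, and 2 immunoproteasome subunits. None of the 7 was called, and 6 of the 7 log2 fold changes were negative. Igtp, an immunity-related GTPase, had signals of 18.7, 27.8 and 13.6 in LKO and 33.9, 45.9 and 36.4 in wild type. All LKO livers lay below all wild type livers. Igtp averaged 20.03 ± 7.19 in LKO and 38.7 ± 6.33 in wild type (SD, n = 3 each), with a log2 fold change of -0.96 (SE 0.23, 95% interval -1.47 to -0.45) and an adjusted p of 0.053 in limma. The gene overlaps Irgm2 on the same strand of chromosome 11 (58199556 to 58207591, and Irgm2 58199618 to 58222782), and 12.3% of its 50-base windows occur there, so part of its reads may be shared. Igtp was called under 4 of the 14 alternatives.

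Irgm1, the regulator of these GTPases, had signals of 47.6, 35.6 and 31.0 in LKO and 41.3, 38.7 and 56.8 in wild type, and its groups overlapped (log2 fold change -0.26). Gbp2 had 1.58, 1.94 and 3.12 in LKO and 2.73, 3.03 and 2.87 in wild type. Gbp3 had 5.14, 2.53 and 3.45 in LKO and 4.89, 8.45 and 3.98 in wild type. Gbp7 had 6.86, 6.85 and 4.45 in LKO and 6.06, 8.97 and 5.89 in wild type. The 3 guanylate-binding genes, neighbours on chromosome 3, overlapped between groups, with log2 fold changes of -0.30, -0.51 and -0.18 in that order.

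Psmb8, Psmb9 and Psmb10 encode the catalytic subunits of the immunoproteasome, and Tap1 encodes part of the transporter that carries its peptides into the endoplasmic reticulum. Psmb8 had signals of 36.0, 33.8 and 42.1 in LKO and 32.7, 30.8 and 27.4 in wild type. Here the LKO livers lay above the wild type livers, yet the gene was not called (log2 fold change 0.29, SE 0.13, adjusted p 0.274 in limma). Psmb9 had 20.05, 7.15 and 12.9 in LKO and 15.3, 21.6 and 11.2 in wild type. Tap1 had 27.0, 17.4 and 17.97 in LKO and 26.6, 27.5 and 18.8 in wild type. Tap1 and Psmb9 are read in opposite directions from RefSeq starts on chromosome 17 with 225 bases between them, and both overlapped between groups (log2 fold changes -0.22 and -0.31). Psmb10, on chromosome 8, had 35.5, 32.3 and 24.3 in LKO and 28.4, 34.7 and 19.9 in wild type, and it was not called either (log2 fold change 0.16).

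**Figure D2:**
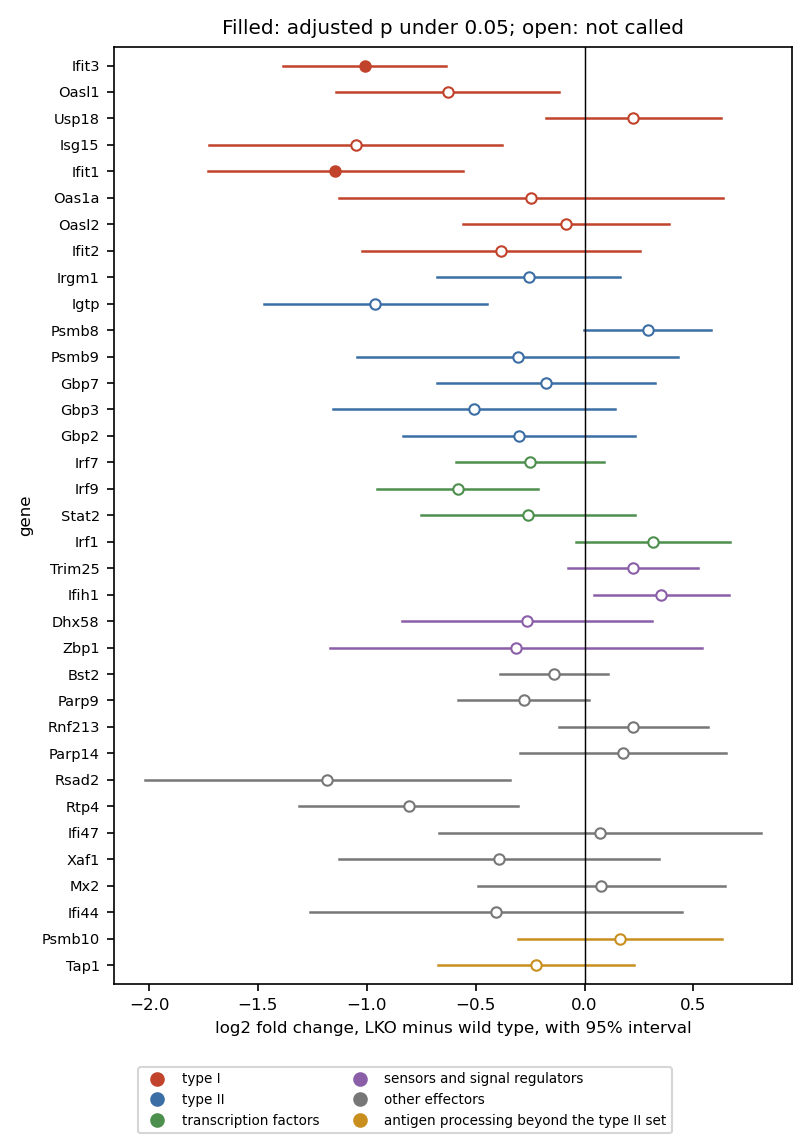
Log2 fold change of each of the 35 tested interferon-stimulated genes (LKO minus wild type, horizontal axis) with its 95% interval, coloured by role. Filled points are Ifit3 and Ifit1, the called genes, and the intervals of Igtp, Isg15, Rsad2, Rtp4, Irf9 and Oasl1 also stay below 0, while that of Ifih1, at 0.04 to 0.66, stays above 0.

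Set side by side, the 8 tested type I genes had 2 lowered genes, 4 genes with LKO wholly below wild type and a median log2 fold change of -0.51. The 7 type II genes had no lowered gene, 1 with LKO wholly below wild type (Igtp), 1 wholly above (Psmb8) and a median of -0.30. Among all genes tested, 1.69% were lowered, and LKO lay wholly below wild type in 11.9% and wholly above in 12.2%. At an unadjusted p under 0.05 the type I genes had 4 lower and the type II genes 1. The difference between these 2 lists was not tested, and it depends on the filter. With a mean signal of at least 5 the medians were -0.82 for type I and -0.26 for type II genes, and with no filter they were -0.38 and -0.30 in that order. As a level per library, the median deviation of the type I genes from their wild type means was -0.23, -0.76 and -1.11 on the log2 scale in LKO replicates 1, 2 and 3, and 0.01, -0.05 and -0.01 in the wild type replicates. The type II genes had 0.00, -0.40 and -0.52 in LKO and -0.12, 0.25 and -0.14 in wild type. By the type I median every LKO library lay below every wild type library, and by the type II median LKO replicate 1 lay among the wild type libraries. Subtracting the wild type means centres the wild type levels by construction. Of the single type I genes, Ifit2, Oas1a, Oasl2 and Usp18 overlapped between groups.

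**Figure D3:**
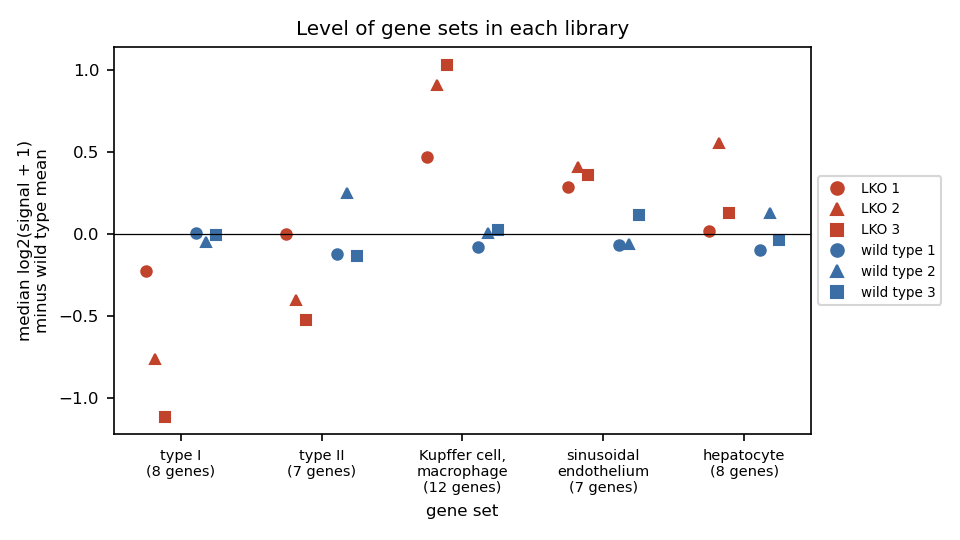
Median deviation of each gene set from its wild type means, log2(signal + 1), in each library (LKO left, wild type right within a set). The type I set lies between -1.11 and -0.23 in LKO libraries, and the Kupffer cell and macrophage markers lie between 0.47 and 1.03 in the same libraries.

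The 4 transcription factors of the module are Stat2 and Irf9, which act downstream of the type I receptor, Irf7, which amplifies type I interferon production, and Irf1. Irf9 had signals of 17.5, 15.3 and 11.5 in LKO and 22.9, 23.5 and 20.7 in wild type. Its groups did not overlap, and it was not called (log2 fold change -0.58, SE 0.17, adjusted p 0.094 in limma). Stat2 had 18.3, 15.5 and 12.8 in LKO and 22.8, 21.8 and 12.9 in wild type, where wild type replicate 3 lay among the LKO livers. Irf7 had 29.2, 29.5 and 23.1 in LKO and 33.1, 37.2 and 27.6 in wild type, again with overlap. Their log2 fold changes were -0.26 for Stat2 and -0.25 for Irf7. Irf1 had 12.8, 13.0 and 12.5 in LKO and 10.03, 11.9 and 8.51 in wild type, so LKO was wholly above, and it was not called (log2 fold change 0.31, adjusted p 0.325 in limma).

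The sensors and signal regulators gave a median log2 fold change of -0.02 over 4 genes. Ifih1, the sensor of long double-stranded RNA also known as MDA5, had signals of 33.8, 32.2 and 33.3 in LKO and 29.7, 26.5 and 21.5 in wild type. LKO livers were nearly equal and above all wild type livers, but Ifih1 was not called (log2 fold change 0.35, SE 0.14, adjusted p 0.210 in limma). Trim25, a ubiquitin ligase of RNA sensing, had 57.2, 71.2 and 57.0 in LKO and 48.2, 50.2 and 60.0 in wild type. Dhx58, a helicase related to Ifih1, had 15.3, 7.59 and 6.91 in LKO and 10.7, 12.5 and 11.2 in wild type, and LKO replicate 1 was the highest of all. The nucleic acid sensor Zbp1 had 5.41, 4.91 and 1.11 in LKO and 4.04, 5.17 and 3.98 in wild type, and only LKO replicate 3 stood below. None of these was called.

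Of the 11 other effectors, 10 were tested, none was called, and their median log2 fold change was -0.21. Rsad2, which encodes the antiviral enzyme viperin, had signals of 2.37, 2.08 and 4.68 in LKO and 4.95, 6.18 and 15.1 in wild type. The groups did not overlap, and wild type replicate 3 was far above the other wild type livers. Its means were 3.05 ± 1.42 in LKO and 8.76 ± 5.56 in wild type (SD, n = 3 each), and its difference of -1.18 on the log2 scale was the lowest of the 35 (SE 0.37, adjusted p 0.127 in limma). Rtp4 had 5.67, 4.61 and 2.90 in LKO and 8.98, 8.58 and 7.18 in wild type. Its groups were also apart, and it was not called (log2 fold change -0.81, SE 0.22, adjusted p 0.0882 in limma).

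Bst2, or tetherin, which retains budding virus at the cell surface, was the most abundant member, with signals of 137, 150 and 127 in LKO and 163, 140 and 154 in wild type. Its log2 fold change was -0.14, with a 95% interval of -0.39 to 0.11. Parp9 had 49.2, 38.3 and 39.5 in LKO and 52.2, 46.1 and 56.0 in wild type, and its partner Parp14, another ADP-ribosyltransferase family gene, had 24.3, 22.8 and 19.5 in LKO and 27.0, 19.3 and 14.0 in wild type. The large ubiquitin ligase gene Rnf213 had 64.2, 48.1 and 44.7 in LKO and 49.3, 40.1 and 43.4 in wild type. These 4 abundant effectors overlapped between groups. Ifi47, an immunity-related GTPase, averaged 7.80 ± 3.39 in LKO and 7.42 ± 3.49 in wild type (SD, n = 3 each). Xaf1, Ifi44 and the dynamin-like Mx2 averaged 2.80, 1.38 and 2.42 in LKO and 3.93, 2.18 and 2.19 in wild type, with overlap in each. Mx1, which is defective in many inbred mouse strains, was at 0.319 in LKO and 0.348 in wild type, too low to test.

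**Figure D4:**
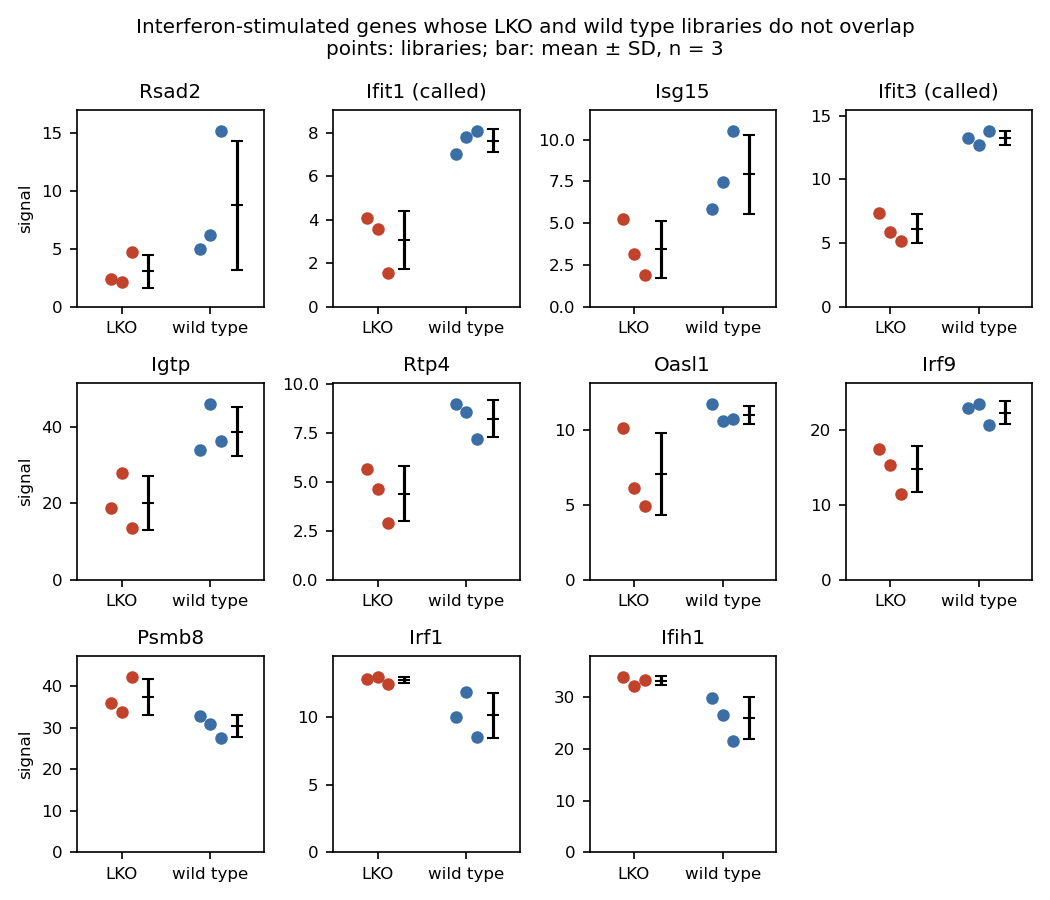
Signal (vertical axes, from 0) of the 11 interferon-stimulated genes whose LKO and wild type libraries did not overlap, one point per library, with the mean and SD beside the points (n = 3). Rsad2, Ifit1, Isg15, Ifit3, Igtp, Rtp4, Oasl1 and Irf9 are lower in LKO, and Psmb8, Irf1 and Ifih1 are higher, with Ifit1 and Ifit3 called.

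Levels between genes were compared as mean signal per kilobase of annotated exons. Bst2 stood first in both groups, with 153 per kilobase in LKO and 168 in wild type. Igtp had 9.91 in LKO and 19.1 in wild type, which made it second in wild type, before Psmb10 at 16.2. In LKO the means of Psmb10, Psmb8 and Trim25 were above that of Igtp, and levels were not tested between genes. Isg15 had 4.54 in LKO and 10.5 in wild type, and Ifit3 had 3.51 in LKO and 7.58 in wild type. At the bottom, Oas2 had 0.109 in LKO and 0.0733 in wild type, and Mx1 had 0.0843 in LKO and 0.0921 in wild type.

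The change of the members was set beside the promoter match and the let-7 sites as a description. Of the 13 members with an ISRE core, 12 had a negative log2 fold change, 2 were lowered, 5 had LKO wholly below wild type, and the median was -0.30. Of the 15 members with a window and no ISRE core, 9 were negative, none was lowered, 2 had LKO wholly below wild type (Irf9 and Oasl1), and the median was -0.22. Ifih1 was the member with an ISRE core and LKO above wild type, and its core lies after the start. The 7 members with a GAS core had a median of -0.18, and 1 of them, Igtp, had LKO wholly below wild type, while Psmb8 and Irf1 were wholly above. For comparison, 1.69% of all genes tested were lowered, 11.9% had LKO wholly below wild type and 12.2% wholly above.

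The microRNAs themselves were not measured, since the libraries hold messenger RNA. Their mature RefSeq sequences (GRCm38.p6, chromosome 15, plus strand) are given with the seed, bases 2 to 8, in capitals, because it is the same in both: let-7b at chr15:85707325-85707346 and let-7c-2 at chr15:85706616-85706637. The let-7c sequence is also encoded by Mirlet7c-1 on chromosome 16.
let-7b: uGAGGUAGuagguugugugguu
let-7c-2: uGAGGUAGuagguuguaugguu

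In the longest 3′ untranslated region of GENCODE M21, 1 of the 35 tested members held the full seed match CTACCTCA and 6 more held a shorter match, CTACCTC or TACCTCA. The shares were 2.86% and 17.1%, against 3.69% and 13.4% of 10684 tested genes with an annotated region. The full match was in Oasl2, at base 40 of the region, shown with the match in capitals, and the shorter ones were in Stat2, Gbp7, Tap1, Parp14, Trim25 and Rnf213.
Oasl2 site: ttacgcctccCTACCTCAtccctagact

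None of these 7 genes was called, 4 of them had a negative log2 fold change, and their median was -0.09. The 28 tested members without a match had a median of -0.30, with 21 negative, and both lowered genes, Ifit1 and Ifit3, were among them.

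The wider pathway was read from lists of other interferon genes. Of the 5 tested receptor genes none was called. Ifnar2 had signals of 50.2, 64.3 and 67.4 in LKO and 39.3, 49.1 and 44.0 in wild type (log2 fold change 0.44, adjusted p 0.132 in limma), and Ifnar1 had 20.4, 20.4 and 25.1 in LKO and 20.4, 26.4 and 24.2 in wild type. Of 5 kinases and STATs none was called. Stat3 averaged 137 ± 26.5 in LKO and 91.4 ± 5.83 in wild type, and Jak1 averaged 109 ± 10.2 in LKO and 85.4 ± 7.003 in wild type (SD, n = 3 each). The interferon ligand genes were not analysed here.

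Among 7 other interferon regulatory factors, Irf5, a factor of macrophage activation, was raised, against 1.82% of all genes tested. Its signals were 13.6, 15.2 and 11.0 in LKO and 6.54, 6.31 and 4.86 in wild type. The groups were well apart, the difference was 1.05 on the log2 scale (SE 0.18), and limma gave an adjusted p of 0.0149. Without LKO replicate 2 the adjusted p was 0.0619 and the call was lost. Of 11 genes of nucleic acid sensing and of 18 negative regulators none was called, with medians of 0.04 and 0.06. The adaptor gene Mavs had a log2 fold change of 0.09 and the Toll-like receptor chaperone gene Unc93b1 one of 0.36, and the regulators Ptpn11 and Rnaseh2c had 0.17 and -0.33. Socs3, an inhibitor of cytokine signalling named after its values were seen, had 4.62, 18.2 and 7.58 in LKO and 3.26, 2.27 and 1.77 in wild type. All its LKO livers were higher, with wide spread, and it was not called (log2 fold change 1.53, adjusted p 0.0695 in limma).

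Of 30 tested genes induced mainly by type I interferon and outside the module, 2 were lowered and none was raised, 22 had a negative log2 fold change, and the median was -0.24. In 8 of the 30 LKO lay wholly below wild type, against 11.9% of all genes tested, and in none wholly above, against 12.2%. Of all genes tested 1.69% were lowered. The list was chosen with earlier results of these data known. Cmpk2, a mitochondrial nucleotide kinase gene next to Rsad2 on chromosome 12 (26469204 to 26479837), had signals of 1.32, 2.08 and 1.78 in LKO and 5.86, 4.67 and 4.20 in wild type. Every wild type liver was above every LKO liver, and Cmpk2 was lowered (log2 fold change -1.11, SE 0.22, adjusted p 0.0253 in limma). Tor3a, a torsin family ATPase gene, had 2.11, 3.42 and 2.45 in LKO and 5.599, 11.9 and 17.02 in wild type, with a wide range in wild type. It was lowered as well (log2 fold change -1.67, SE 0.33, adjusted p 0.0274 in limma). With 1 library left out in turn, each of these 2 calls held in 2 of 6 fits, with adjusted p in limma of 0.0458 to 0.0875 for Cmpk2 and 0.00588 to 0.108 for Tor3a. The calls of both were lost without LKO replicate 3, wild type replicate 2 or wild type replicate 3, that of Cmpk2 also without wild type replicate 1 and that of Tor3a without LKO replicate 2 and with limma-voom on estimated reads.

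Of 16 tested genes induced mainly by interferon gamma and outside the module, 1 was lowered, against 1.69% of all genes tested. Of the 16, 7 had a negative log2 fold change, and the median was 0.11. Gbp6 had signals of 6.92, 2.13 and 2.65 in LKO and 8.06, 13.2 and 18.2 in wild type. Its groups did not overlap, and it was lowered with an adjusted p of 0.0481 in limma (log2 fold change -1.59, SE 0.37). This call was at the threshold and held in 5 of 14 alternatives, and it was lost without LKO replicate 2 or 3, without wild type replicate 2 or 3, with a pseudocount of 0.1, with no filter, with a mean of at least 5, with limma-voom and with a replicate block. Of 17 genes of class I antigen presentation none was called and the median was 0.01. The light chain gene B2m averaged 1224 ± 4.56 in LKO and 1321 ± 63.1 in wild type, and the heavy chain gene H2-K1 averaged 1300 ± 119 in LKO and 1306 ± 215 in wild type (SD, n = 3 each).

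**Figure D5:**
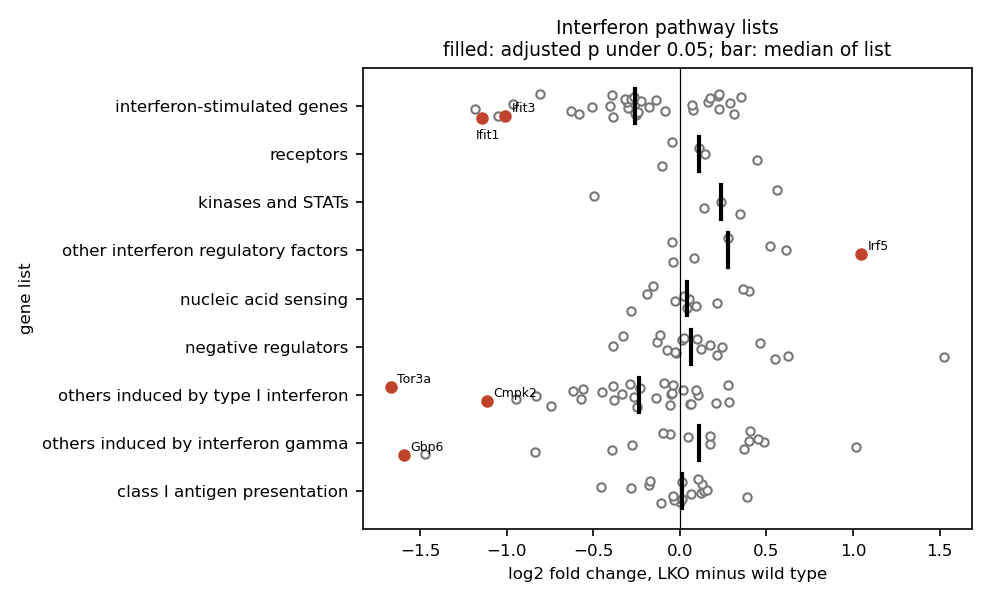
Log2 fold changes (LKO minus wild type, horizontal axis) of the tested genes of the module and of 8 other interferon gene lists, with a bar at each list's median. The called genes are filled and named, with Ifit1, Ifit3, Cmpk2, Tor3a and Gbp6 below 0 and Irf5 at 1.05.

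Markers of other liver cell types moved in the same libraries. All 12 Kupffer cell and macrophage markers had positive log2 fold changes with a median of 0.81, and 5 were raised in limma. Of all genes tested, 5557 of 11168 had positive log2 fold changes and 1.82% were raised. Among the 5 raised markers were Csf1r, Timd4, Clec4f and Vsig4. Each of these lost its call when some single libraries were left out, and Vsig4 also with no filter. The summed signal of the 12 markers was 209 to 304 in LKO and 139 to 157 in wild type, and none was at 0. Among the 3 LKO libraries their level was lowest in replicate 1, where the type I genes were closest to wild type. This was not particular to macrophage markers, since replicate 1 was also the lowest LKO library for the endothelial and hepatocyte sets. Their median deviations in LKO replicates 1, 2 and 3 were 0.28, 0.41 and 0.36 for endothelial and 0.02, 0.55 and 0.13 for hepatocyte markers. Sinusoidal endothelial markers had a median of 0.34 and hepatocyte markers one of 0.23, with none called. Alb, the main hepatocyte transcript, ran between 87753 and 152823 in LKO and between 94071 and 121122 in wild type. Of the T and NK cell markers Cd4 alone passed the minimum, and it was raised (log2 fold change 1.43, adjusted p 0.0203 in limma), a call lost without LKO replicate 3 or wild type replicate 2. The summed signal of that list was 4.76 to 8.84 in LKO and 2.27 to 4.20 in wild type, and Cd3e was at or near 0 in all 6 libraries. Plasmacytoid dendritic cell and neutrophil markers were too low to test, with sums of at most 2.54. The part of cell composition in the interferon results was not tested.

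The libraries held 8549483 to 10764825 estimated reads in the listed genes, and a signal of 3 reads was worth 0.331 to 0.447 units. Replicates of a group correlated across genes at 0.977 to 0.985 and libraries of different groups at 0.958 to 0.9754. The 10 most abundant genes took 24.2% of the signal of LKO replicate 2 and between 18.7% and 21.02% in the remaining 5. Without LKO replicate 2 the lowered members were Ifit3 and Igtp, and without LKO replicate 3, the library most often lowest, Ifit3 alone.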

How the data were processed

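Messenger RNA of 3 LKO and 3 wild type livers was sequenced from stranded libraries, per the labels' protocols. Tools listed in the submitters' processing notes were STAR 2.5.1, RSEM 1.2.22 and edgeR, along with Trimmomatic 0.36, bcl2fastq 2.17 and Picard 1.84, and the build was mm10. How strand was used in counting is not given in the sources used here. Per library, the authors deposited 1 signal per gene with no named unit. From the values, this signal behaves as estimated counts with 2 decimals, multiplied by a factor of each library. Per library, 82.0% to 83.1% of values were whole reads within 0.005. The signal was tested on a log scale, and no count model was used. Steps of 1 read gave the depths, and precision derived from reads covers counting error only. limma 3.58.1 in R 4.3.3 fitted log2(signal + 1) with a mean-variance trend for genes with a mean of at least 1, two-sided, with Benjamini-Hochberg adjustment and no block. Log2 fold changes on this scale understate changes of low genes. The fit was tested on simulated data, in which only genes with a mean of at least 5 were changed. That simulation does not cover changes in members with lower means.

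The members and all lists were chosen with earlier results of these data known. Beyond the members, up to 4 called genes of each list were named in order of p, or the 2 of highest mean where none was called, and genes named after their values were seen are said to be so. From the marker lists only some of these are named in the text. Some genes are not reported here by name. Promoters and microRNAs came from RefSeq, and untranslated regions from GENCODE M21. Alternatives were 2 scalings, a pseudocount of 0.1, no filter, a mean of at least 5, limma-voom on estimated reads, a replicate block, each library left out, and near copies summed, the last chosen after seeing the data.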

Additional observations from a re-analysis of the deposited data

How the results depend on the processing

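Ifit3 was lowered under each of the 14 alternatives. The number of lowered members was 2 under median-of-ratios scaling and with near copies summed, where 194 and 189 of all genes were lowered. It was 3 (with Igtp) with equal library totals and with limma-voom, where 205 and 175 of all genes were lowered. It was 1 (Ifit3) with a pseudocount of 0.1, with no filter and with a mean of at least 5. Under these settings, in that order, 176, 158 and 157 of all genes were lowered. Deviations of same-numbered libraries correlated at 0.032 to 0.054, and each library correlated best with its own number. Correlations this small cannot settle whether the mouse numbers pair the samples. With the number as a replicate block, 4 members were lowered, Ifit1, Ifit3, Igtp and Rsad2, and 199 of all genes were. Leaving out 1 library gave 1 to 6 lowered members, the 6 without LKO replicate 1 (Ifit1, Ifit3, Irf9, Isg15, Oasl1 and Rtp4). Over the same fits, 79 to 263 of all genes were lowered and 76 to 277 were raised. No alternative raised a member, and the medians of the type I and type II genes moved by less than the spread between libraries. The type I median still ran from -0.82 (mean of at least 5) to -0.38 (no filter), beside -0.51 in the main fit. The spread used for it, a pooled SD of 0.32, came mainly from the LKO libraries (SD 0.45, wild type 0.03). Of 482 member values under alternatives, 454 kept direction and side of the threshold, 8 lost a call, 9 gained one and 11 changed sign. The sign changes came from leaving out a library, with log2 fold changes of -0.22 to 0.39 for Ifi47, -0.13 to 0.23 for Mx2, -0.53 to 0.24 for Oas1a, -0.045 to 0.40 for Parp14, -0.048 to 0.34 for Psmb10, -0.64 to 0.050 for Psmb9 and -0.60 to 0.20 for Zbp1. The causes of these changes were not tested.

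Many members are low: 141 and 327 estimated reads stood behind Ifit3 in LKO and wild type, and 69 and 189 behind Ifit1. What size of difference this depth can show was not tested for single members.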
